A study of Mus musculus with 20 samples.

Results

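The genes described here are 36 transcripts that mark astrocytes, listed by symbol as known markers with no measured value in the rule, though with earlier results of these data known. All 36 of the 36 listed symbols were rows of the deposited count table, among 12988 genes in all, and all 36 passed the filter on low counts. They fall into 6 roles: 2 intermediate filament genes, 6 genes of glutamate and amino acid handling, 9 genes of membrane transport and cell contact, 5 metabolic enzymes, 8 secreted proteins and 6 genes of signalling and transcription. RNA had been taken from the adBNST, the anterodorsal division of a nucleus named for the stria terminalis fibre tract (its bed nucleus), which is a small cell group of the extended amygdala in the basal forebrain. The series asked whether chronic variable mild stress alters this nucleus differently in the sexes.

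The 4 groups were female control, female stressed, male control and male stressed mice, with 15 mice and 5 libraries in each. Stress was a randomised schedule of minor stressors lasting 6 weeks (wet or missing bedding, cage tilt, isolation, swims, cold, predator sounds, restraint and others) in mice that were 7 to 9 weeks old when assigned. Stressed mice were dissected 1 hour after a last bout of wet bedding, and mice of every group had received ketamine as the anaesthetic. Every library was made from the pooled adBNST of 3 mice, so the spread between libraries is one between pools. The strain, and whether controls were handled at matched hours, were not given in the sources used here.

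Astrocytes clear glutamate and potassium released by neurons, supply neurons with glutamine and lactate, and couple to one another through gap junctions. Their end-feet on blood vessels carry water channels, and they secrete lipoproteins and matrix proteins. When tissue is injured they become reactive, a state classically marked by more of the intermediate filaments GFAP and vimentin, while their transporters and metabolic enzymes stand for the resting, homeostatic state. In whole tissue, fewer astrocytes and less of a transcript per astrocyte cannot be told apart.

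Libraries held 2.71 to 33.6 M counts (median 15.6 M). Prodh, the proline dehydrogenase gene, gave the lowest count of any member, 64 in female control 4, the shallowest library. Expression of sex-linked genes matched the labelled sex in 20 of 20 libraries. Two-sided tests of all genes used edgeR's quasi-likelihood method, and adjusted p refers to the Benjamini-Hochberg adjustment over 12988 genes. The threshold for a call was an adjusted p of 0.05. Levels are CPM (counts scaled for library size), and differences are log2 fold changes with their standard error (SE). The astrocyte score is the mean log2 CPM of the 36 genes, given relative to its mean over the 20 libraries.

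At the ends of the range of the astrocyte score were 3 libraries. Female stressed 2 had the highest astrocyte score (0.15 on the log2 scale) and the highest score of 13 markers of the neighbouring thalamus and septum (0.45). Male stressed 3 had the lowest astrocyte score (-0.15), together with the lowest scores of 16 neuronal markers (-0.24) and 14 oligodendrocyte markers (-0.43). Female stressed 5 was close to it in astrocyte score (-0.14) and had the lowest thalamic and septal score (-0.26). The score of 14 markers of striatal neurons was highest in female stressed 5 (0.58). It was 0.56 in male stressed 3 and -0.46 in female stressed 2. All 16 neuronal markers, among them the GABA genes Gad1, Gad2 and Slc32a1, had counts in every library; whether the 36 transcripts came from astrocytes alone cannot be told in whole tissue. Since a dissected nucleus can include tissue of its neighbours, scores of such markers are given beside the results they move with. Whether the RNA of these markers came from neighbouring tissue or from cells of the nucleus itself was not tested.

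The astrocyte genes together took a similar share of counts in the stressed and control libraries of each sex. Between the controls the mean share was higher in females (libraries 1.41% to 1.48%) than in males (1.33% to 1.46%). The astrocyte genes held 1.45% ± 0.0297 of counts in female control, 1.42% ± 0.0658 in female stressed, 1.37% ± 0.0517 in male control and 1.39% ± 0.0526 in male stressed mice (SD, n = 5 libraries each). The astrocyte score was 0.04 ± 0.04, 0 ± 0.11, 0 ± 0.06 and -0.03 ± 0.07 in the same order. The difference of group means with stress was -0.03 in females and -0.03 in males, smaller than the spread between libraries of any group. The female difference ran from -0.071 without female stressed 2 to 0.0021 without female stressed 5, and the male one was -0.0025 without male stressed 3.

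**Figure D1:**
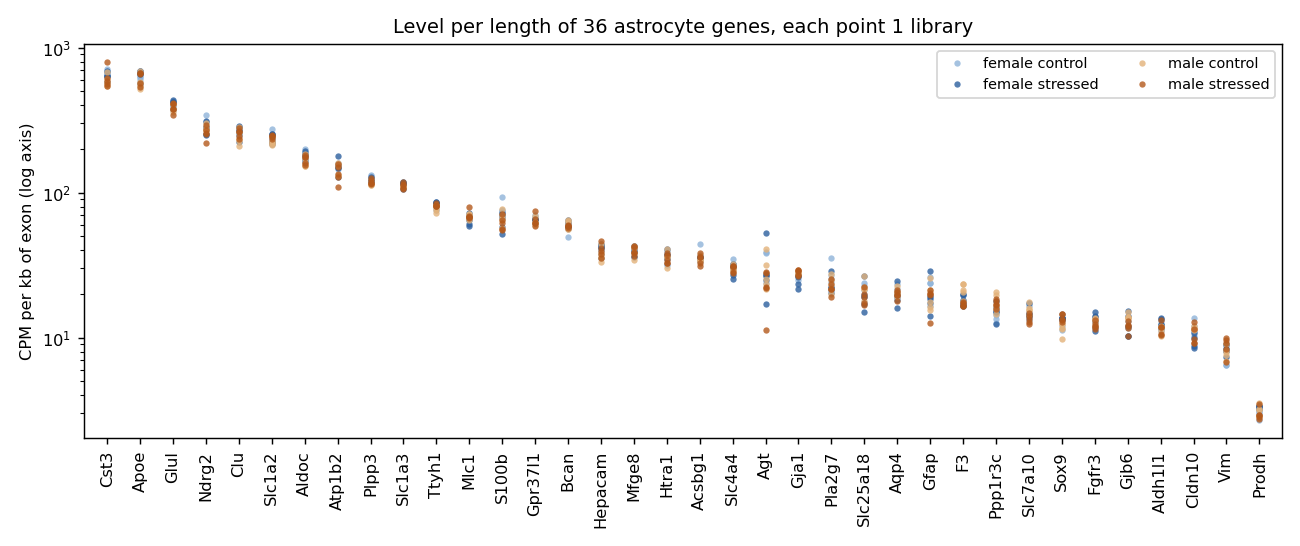
Level of each of the 36 astrocyte genes in CPM per kilobase of exon (log axis), 1 point for each of the 20 libraries, coloured by group and ordered by mean. Cst3 and Apoe lead with means of 634 and 619, and Prodh is lowest at 3.11.

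Per kilobase of exon, 2 of the 8 genes of secreted proteins led. Cst3, the protease inhibitor cystatin C, stood at 634 ± 64.5 CPM per kilobase, and Apoe, the main lipoprotein of the brain, at 619 ± 57.2 (SD over 20 libraries). Their ranges overlapped, so the order of the pair is not set by these libraries. Glul, glutamine synthetase, followed at 397, apart from both in every library. Slc1a2, the glutamate transporter GLT-1, was at 237 and Gfap at 19.9. Vim, which encodes vimentin, was next to last at 8.14, and Prodh was last at 3.11. Of the 35 neighbouring pairs in this order, 29 had overlapping ranges. Each length counts the merged exons of all annotated transcripts of a gene, so the order depends on that choice.

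Stress in females left no astrocyte gene past the test. edgeR called 0 of the 36 genes, as it called 0% of all genes in this contrast, and DESeq2 (0.0077% of all genes) and limma-voom (0%) also called 0 of the 36. At an unadjusted p under 0.05, 0 were higher (3.69% of all genes) and 2 lower (3.83%), against 7.51% of all genes in either direction. For 0 of the 36 did the 5 stressed and 5 control libraries fail to overlap, as they did for 1.22% of all genes. The median log2 fold change was -0.02 (0 over all genes), 16 of 36 values were positive, and values ran from -0.28 to 0.15. The 95% interval lay within 0.5 log2 units of 0 for 35 of the 36 genes, the exception being Agt.

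The lowest p in females belonged to S100b, which encodes a calcium-binding protein of astrocytes that oligodendrocytes also express. S100b stood at 109, 102, 138, 112 and 111 CPM in female control and at 98.8, 107, 104, 86.5 and 76.5 CPM in female stressed libraries. Most stressed libraries were below most controls, and the groups overlapped between 102 and 107 CPM. The log2 fold change of S100b was -0.28 (SE 0.10, adjusted p = 0.583). Markers of oligodendrocytes moved beside it: 0 of 14 had a positive log2 fold change in females, their median was -0.25, and their summed level was 9703 to 13979 CPM in control and 9126 to 11206 CPM in stressed libraries, with none at 0. With the oligodendrocyte score as a covariate the S100b value was -0.17. Cldn10, a claudin of cell contacts, had a log2 fold change of -0.24 (adjusted p = 0.617), and Slc4a4, the sodium bicarbonate cotransporter, one of -0.12 (adjusted p = 0.675).

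By role, values in females scattered on both sides of 0. The 9 membrane genes had 2 positive and 7 negative values (median -0.07), and 1 of them, Cldn10, was lower at an unadjusted p under 0.05. The 8 secreted proteins had 5 positive and 3 negative values (median 0.03). The 6 glutamate genes were split 3 to 3 (median -0.01). Slc1a3, the transporter GLAST, was at 965 ± 37.3 CPM in control and 966 ± 43.4 in stressed libraries. Glul was at 1336 ± 77.1 and 1376 ± 75.2 CPM. Aldh1l1, the folate enzyme used as a pan-astrocyte marker, was at 53.6 ± 3.55 and 56.9 ± 3.83 CPM. Each of these differences was within 1 SD of the library values.

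**Figure D2:**
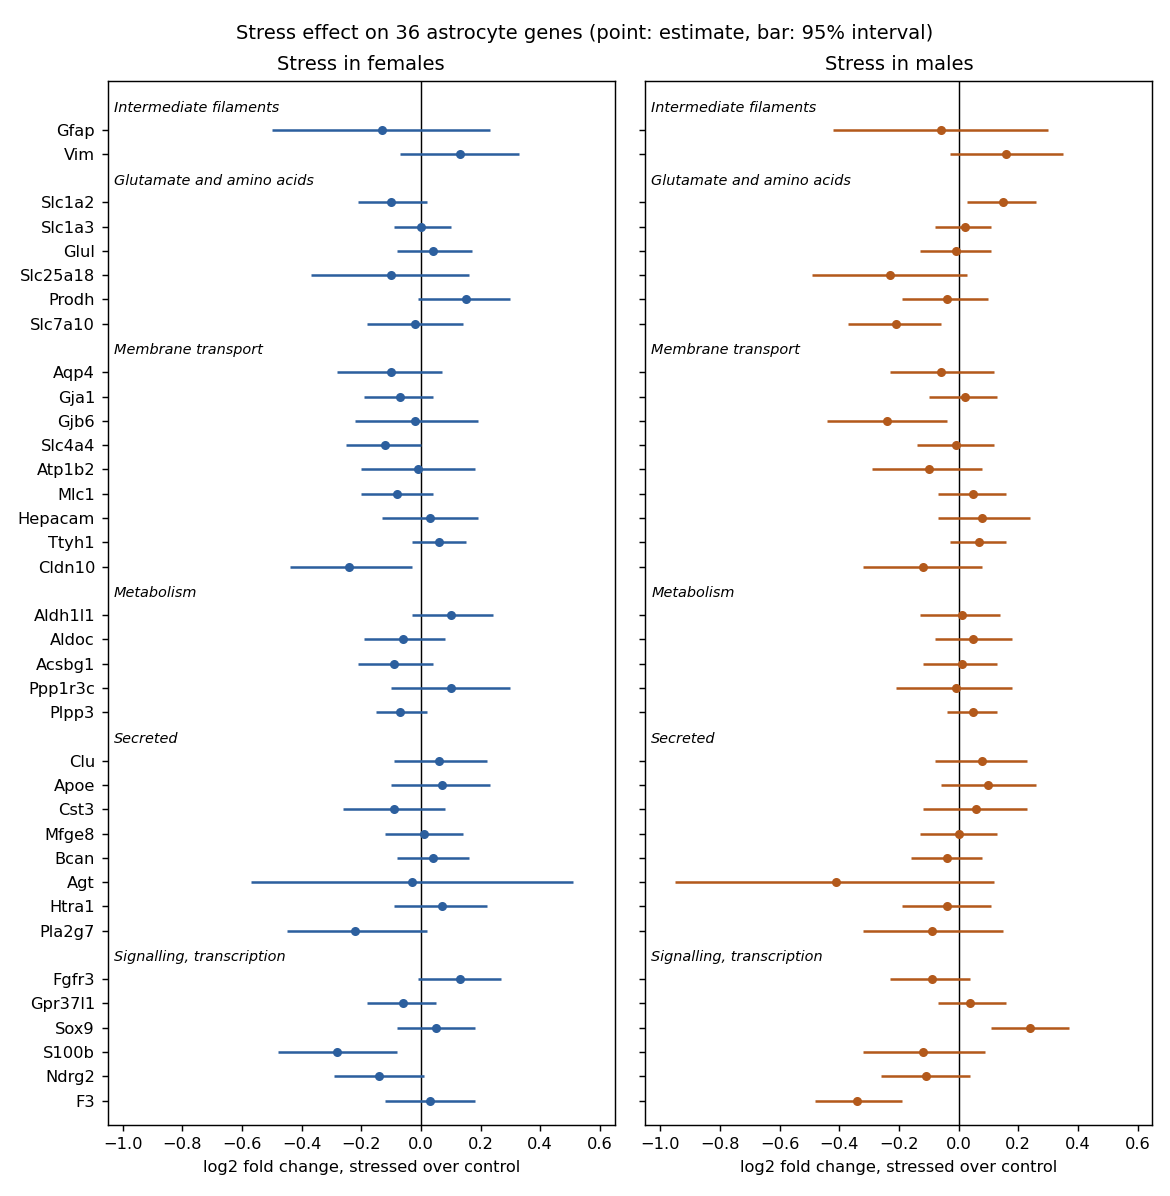
Log2 fold change (stressed minus control) of each of the 36 astrocyte genes in females and in males, with 95% intervals from the edgeR fit, ordered by role. Most intervals include 0, and F3 in males (-0.34) and Sox9 in males (0.24) are among those that do not.

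Stress in males also left no member past the edgeR test, but 4 genes separated the groups. edgeR called 0 of 36, against 0.0077% of all genes. At an unadjusted p under 0.05, Sox9 and Slc1a2 were the 2 members that were higher (8.71% of all genes), and F3, Slc7a10 and Gjb6 the 3 that were lower (6.76%). In either direction the share of all genes was 15.5%, so the members' count was near the background. The median was -0.01 (-0.01 over all genes), with 17 of 36 positive and values from -0.41 to 0.24. DESeq2 called 2 members, F3 and Sox9, among 2.4% of the 9966 genes to which it gave an adjusted p, and limma-voom called 0 (0.0077% of all genes). The 5 stressed and 5 control libraries did not overlap for 4 members, Slc1a2, Sox9, Gjb6 and F3, and for 4.3% of all genes. Naming Gjb6 here was a choice made after its values were seen.

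F3 had the smallest p of the members in males, so the DNA around its start site is printed first. The sequence runs 5′ to 3′ from 250 bases before to 30 bases after the RefSeq start site (GRCm38.p6, the assembly also called mm10), which is also the outermost start of the gene in GENCODE M21. Capitals mark matches, on either strand, to any of 5 motifs. The motif TATAAA stands for the TATA box of the basal promoter. The motif GGGCGG stands for the GC box bound by Sp1. The motif TGANTCA stands for sites of the AP-1 factors Fos and Jun. The motif TTCNNNGAA stands for sites of STAT factors of cytokine signalling. The motif ACANNNTGT stands for the core of steroid receptor sites. The F3 promoter is chr3:121723287-121723566 on the plus strand.
F3: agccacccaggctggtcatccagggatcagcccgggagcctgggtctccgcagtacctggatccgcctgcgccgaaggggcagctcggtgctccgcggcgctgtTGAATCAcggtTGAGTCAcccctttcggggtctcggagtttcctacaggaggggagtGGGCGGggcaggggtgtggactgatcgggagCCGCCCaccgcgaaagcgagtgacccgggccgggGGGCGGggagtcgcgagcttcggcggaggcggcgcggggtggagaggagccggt

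The F3 promoter is 71.1% G and C and holds 2 AP-1 matches, beginning 146 and 135 bases before the start, and 3 GC box matches. Of all 32851 promoters of this length, 7.46% hold an AP-1 match and 34.7% a GC box match. A match describes the letters only. RefSeq promoter entries were found for 32 of the 36 genes.

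F3 encodes tissue factor, the cell-surface initiator of blood coagulation, which astrocytes make in the brain. It stood at 44.9, 51.8, 53.8, 58.8 and 59.5 CPM in male control and at 41.4, 42.3, 41.8, 44.7 and 43.4 CPM in male stressed libraries. All 5 stressed libraries were below all 5 controls, by a margin of 44.7 against 44.9 CPM at the closest pair. In females F3 stood at 45, 45.2, 43.9, 41.8 and 49.3 CPM in control and at 49.9, 50.6, 46, 43.1 and 42 CPM in stressed libraries, which overlapped throughout. The male controls were thus the high group, and the libraries of the other 3 groups together spanned 41.4 to 50.6 CPM.

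The log2 fold change of F3 with stress was -0.34 in males (SE 0.07, 95% interval -0.48 to -0.19, adjusted p = 0.0806 by edgeR) and 0.03 in females. F3 missed the threshold in that fit and passed it in some others: its adjusted p was 0.00666 by DESeq2 and 0.0261 in a fit of the male libraries alone. Leaving out single libraries gave an adjusted p of 0.0118 to 0.261, and 3 of the 20 omissions passed. These were without female stressed 2 (0.0293), without male control 1 (0.0118, log2 fold change -0.40) and without male stressed 5 (0.0447). Calls over all genes moved with them, from 1 in the fit of all libraries to 232, 3 and 129 in these omissions and 303 in the males alone. The difference between the male and the female stress effect, tested as an interaction, was -0.37 (SE 0.10, adjusted p = 0.266).

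Sox9, the transcription factor of glial identity, differed in the other direction. It stood at 51, 40.6, 51.2, 48.2 and 47.1 CPM in male control and at 60.4, 59.7, 55.3, 54.5 and 53 CPM in male stressed libraries. All stressed libraries exceeded all controls. In females the controls spanned 46.3 to 59.8 CPM and the stressed libraries, between 54.6 and 56.6 CPM, lay inside that span. The log2 fold change of Sox9 was 0.24 in males (SE 0.06, adjusted p = 0.0919 by edgeR and 0.0289 by DESeq2). Averaged over the sexes it was 0.15 (SE 0.05, adjusted p = 0.256).

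Slc1a2, which clears most of the glutamate released at synapses, stood at 2993, 2956, 2878, 2864 and 2793 CPM in male control and at 3251, 3286, 3247, 3073 and 3162 CPM in male stressed libraries. The groups did not overlap. The log2 fold change was 0.15 (SE 0.06, adjusted p = 0.205). In females the stressed libraries (2830.1 to 3329.6 CPM) overlapped the controls (3083 to 3590.1 CPM), with a value of -0.10 (SE 0.06, adjusted p = 0.712). The male minus the female value, 0.24 (SE 0.08, adjusted p = 0.335), did not pass. The other glial glutamate transporter, Slc1a3, was at 939 ± 3.19 CPM in male control and 951 ± 46.1 in male stressed libraries, a difference smaller than the SD of the stressed libraries.

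Gjb6, the gap junction protein connexin 30, was the fourth gene without overlap. It stood at 36.7, 40, 37.2, 36.7 and 37 CPM in male control and at 31.9, 31.2, 27.4, 35 and 32.6 CPM in male stressed libraries. Its log2 fold change was -0.24 (SE 0.10, adjusted p = 0.218), while Gja1, the partner connexin 43, was at 286 ± 4.85 and 289 ± 14.1 CPM. Slc7a10, a transporter of small neutral amino acids including D-serine, had a log2 fold change of -0.21 (adjusted p = 0.163). Slc7a10 shares 377 exon bases (17.9% of its exons) with Lrp3 on the opposite strand in GENCODE M21, and whether the counting used strand was not given in the sources used here, so its reads may include some of Lrp3.

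**Figure D3:**
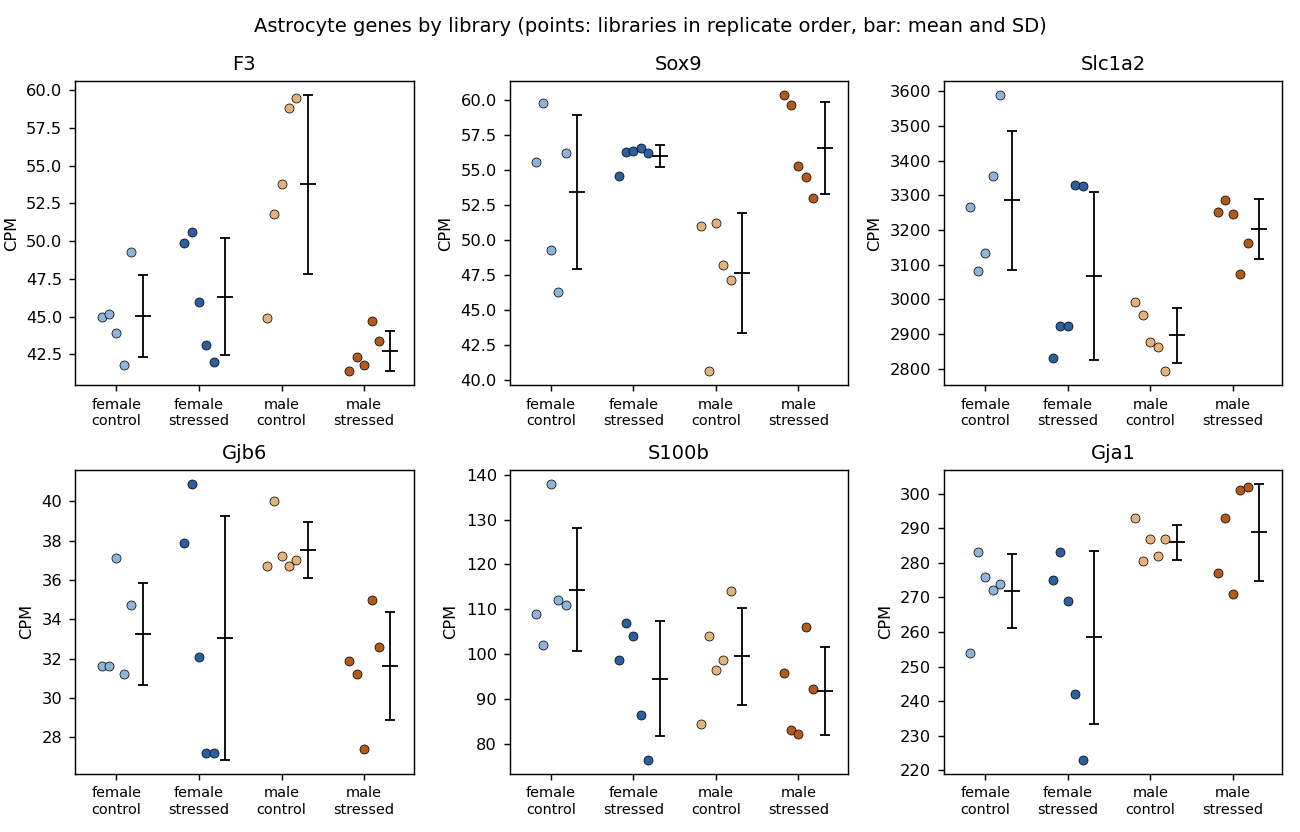
CPM of F3, Sox9, Slc1a2, Gjb6, S100b and Gja1 in each of the 20 libraries (points) by group, with bars for the group mean and SD; the axes do not start at 0. In F3 the male controls (44.9 to 59.5) are the high group, and in Slc1a2 the male controls (2793 to 2993) are the low group.

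Markers of striatal neurons, the striatum being a neighbour of the adBNST, moved with the male groups. All 14 of 14 had a positive log2 fold change with stress in males (median 0.56) and an unadjusted p under 0.05, and none was at 0. Their summed level was 3166 to 3922 CPM in male control and 4499 to 6699 CPM in male stressed libraries, so the male controls were the lower group in every library. When the model included the striatal score as a covariate, the stress value in males was 0.045 for Slc1a2, 0.015 for Gjb6 and -0.10 for Slc7a10. For F3 it was -0.27 and for Sox9 0.23. The adjusted p was 0.846 for both, a value that other genes of that fit shared, so it does not tell the genes apart. In males the score and the stress groups went together, so this fit separates them poorly. Over the 20 libraries, which share dissection and depth, the log2 CPM of Slc1a2 had r = 0.754 and rho = 0.771 with the striatal score (r = 0.745 without the 2 libraries farthest from its median). For F3 these values were r = -0.638 and rho = -0.621 (r = -0.558 without its farthest 2). Slc1a2 and F3 had r = -0.692 with each other.

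**Figure D4:**
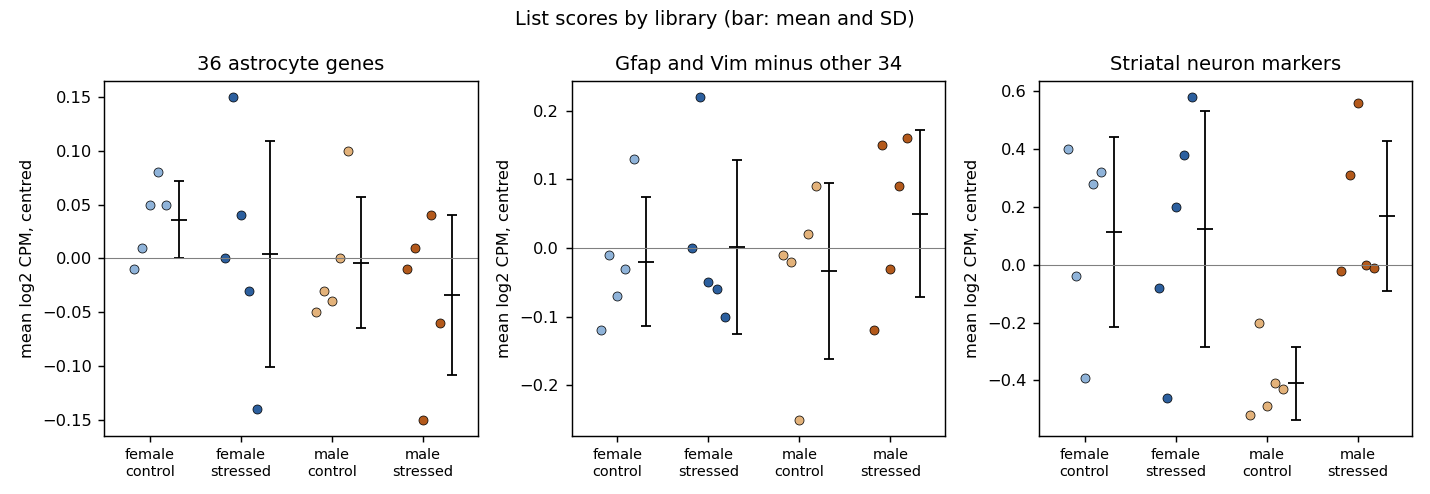
Scores of the 36 astrocyte genes, of Gfap and Vim minus the other 34, and of striatal neuron markers in each library (mean log2 CPM relative to the mean of 20 libraries), by group, with bars for the mean and SD. The striatal score of the male controls runs from -0.52 to -0.2, below every male stressed library (-0.02 to 0.56), while the astrocyte scores of the 4 groups overlap.

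The filament genes, classical signs of reactive astrocytes, gave no called difference in either sex. Gfap was at 92.5 ± 16.5 CPM in female control, 82.5 ± 23 in female stressed, 81.3 ± 17.6 in male control and 79.1 ± 14.9 in male stressed libraries. Its log2 fold change with stress was -0.13 in females (SE 0.18, 95% interval -0.5 to 0.23) and -0.06 in males (SE 0.17, interval -0.42 to 0.3). Both intervals include 0, so the direction of a Gfap difference was not resolved with this spread. Leaving out single libraries moved the male value between -0.12 and 0.067, and covariates for neuronal and striatal markers made it 0.16 and 0.31.

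Vim was at 35.6 ± 4.6 and 39.6 ± 3.24 CPM in female control and stressed libraries and at 37.6 ± 3.85 and 41.6 ± 5.87 in the male ones. Its log2 fold change averaged over the sexes was 0.14 (unadjusted p = 0.0417, adjusted p = 0.373). The score of the 2 filament genes minus that of the other 34 was -0.02 ± 0.1 in female control, 0 ± 0.12 in female stressed, -0.03 ± 0.13 in male control and 0.05 ± 0.12 in male stressed libraries. The stressed minus control difference of that score, 0.02 in females and 0.09 in males, was below the SD of each group. The score joins genes of opposite sign. The log2 fold changes of Gfap and Vim with stress were -0.13 and 0.13 in females, and -0.06 and 0.16 in males.

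A longer list of 37 genes of reactive astrocytes, chosen with earlier results of these data known, had 22 in the table and 0 called by edgeR in any contrast. With stress in females, 0 of 22 were higher (3.69% of all genes) and 2 lower (3.83%) at an unadjusted p under 0.05. These were Ggta1, a galactosyltransferase (-0.30), and Cp, the iron-handling ceruloplasmin (-0.21). With stress in males there were 0 higher (8.71% of all genes) and 0 lower (6.76%). The smallest p there belonged to S1pr3, a sphingosine phosphate receptor (0.18), and Serping1, the complement C1 inhibitor (0.21). The list's median was -0.09 in females and 0.03 in males. Averaged over the sexes there were again 0 higher (7.45% of all genes) and 0 lower (5.27%). Cd44, a hyaluronan receptor, was at -0.20 and Cp at -0.10. In the interaction 2 were higher (5.34% of all genes) and 0 lower (5.03%), namely Ggta1 (0.40) and Cp (0.22).

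For male minus female in controls, 2 of the 22 reactive genes were higher (7.08% of all genes) and 3 lower (8.17%) at an unadjusted p under 0.05. The smallest p belonged to Fbln5, a matrix protein (-0.40, adjusted p = 0.119), and Hspb1, a small heat shock protein (0.51, adjusted p = 0.124). In stressed mice 3 were higher in males (3.71% of all genes) and 0 lower (3.35%), 16 of 22 values were positive, and the median was 0.07. Serpina3n, a secreted protease inhibitor of reactive astrocytes, was at 18.1 ± 3.28 CPM in female stressed and 23.2 ± 5.01 in male stressed libraries, a value of 0.35 (adjusted p = 0.649). It passed under 2 alternatives chosen after seeing the data, with the astrocyte score as a covariate (0.45, adjusted p = 0.0295) and without both female stressed 2 and male stressed 3 (0.57, adjusted p = 0.0391). Fkbp5, a chaperone of the glucocorticoid receptor, had a value of 0.24 (adjusted p = 0.649).

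Sex in control mice was compared as male minus female. edgeR called 0 of 36 members, against 0.747% of all genes, and limma-voom called 0 (0.485% of all genes). DESeq2 called 3, of which F3 was higher and Slc1a2 and Plpp3 lower in males, among 1.91% of all genes. At an unadjusted p under 0.05, F3 and Ppp1r3c were the 2 members that were higher (7.08% of all genes), and Plpp3, Slc1a2, Sox9, Aldoc and Cst3 the 5 that were lower (8.17%), against 15.3% of all genes in either direction. The median was -0.05 (0 over all genes), 11 of 36 values were positive, and values ran from -0.2 to 0.29. This comparison uses the same male control libraries as stress in males, so the 2 sets of values are not independent.

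F3 had a log2 fold change of 0.26 for sex in controls (SE 0.07, adjusted p = 0.0897 by edgeR and 0.0492 by DESeq2), and 0.32 without male control 1, where the adjusted p was 0.0265. Slc1a2 had one of -0.18 (SE 0.06, adjusted p = 0.119 by edgeR and 0.0397 by DESeq2). Female controls held Slc1a2 at 3266, 3083, 3135, 3355 and 3590.1 CPM, all above the male controls, and it was the 1 member without overlap here (3.97% of all genes). Plpp3, a membrane lipid phosphatase of astrocytes, had one of -0.14 (SE 0.04, adjusted p = 0.115). Of the striatal markers, 0 of 14 had a positive value (median -0.59), and the Slc1a2 value was -0.09 when the model included their score. Ppp1r3c, which directs glycogen synthesis, had the highest value at 0.29 (adjusted p = 0.152).

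Sex in stressed mice gave 0 called members by edgeR, DESeq2 and limma-voom, which called 0.077%, 0.108% and 0.0847% of all genes. At an unadjusted p under 0.05, 1 was higher in males (3.71% of all genes) and 2 lower (3.35%), against 7.06% of all genes in either direction, and 0 members lacked overlap (1.27% of all genes). Gja1 had a log2 fold change of 0.16 (adjusted p = 0.626), Aldh1l1 one of -0.14 (0.678) and Fgfr3, a growth factor receptor of astrocytes, one of -0.14 (0.70). The median was -0.04 (0 over all genes).

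The interaction, which is the stress effect of males minus that of females, gave 0 called members by edgeR, DESeq2 and limma-voom, which called 0%, 0.169% and 0% of all genes. At an unadjusted p under 0.05, the 2 members Slc1a2 and Sox9 were higher (5.34% of all genes) and the 2 members F3 and Fgfr3 lower (5.03%), against 10.4% of all genes in either direction. Fgfr3 had a value of -0.22 (adjusted p = 0.421). Stress averaged over the sexes also gave 0 called members by all 3 tools, which called 0%, 0.1% and 0% of all genes in the same order. There 2 members were higher (7.45% of all genes) and 5 lower (5.27%) at an unadjusted p under 0.05, against 12.7% in either direction, led by Sox9, F3 (-0.15, adjusted p = 0.27) and S100b (-0.20, adjusted p = 0.278).

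Astrocyte genes varied from pool to pool about as much as genes in general, with Agt at the upper end. The median coefficient of variation of CPM over the 20 libraries was 8.67% for members and 9.65% for all genes, and 24 of 36 members were under 10%. Slc1a3 varied least, at 3.74%. Agt, which encodes the angiotensin precursor that astrocytes make in the brain, varied most, at 32.5%, above 99.2% of all genes. Gfap followed at 20.9%. Next were Pla2g7, a lipoprotein-associated phospholipase, at 15.5%, the mitochondrial glutamate carrier Slc25a18 at 15.4% and S100b at 14.1%; Pla2g7 and Slc25a18 were named after their values were seen. The promoters of Gfap and Agt are shown because both genes varied together and both windows hold a STAT match. Of all promoters 7.83% hold one, but the pair was chosen with its matches seen, so that share tests nothing here. A match describes the letters only, and a link between the matches and the variation was not tested. The Gfap promoter is chr11:102897171-102897450 and the Agt promoter chr8:124569677-124569956, both on the minus strand, with capitals as above.
Gfap: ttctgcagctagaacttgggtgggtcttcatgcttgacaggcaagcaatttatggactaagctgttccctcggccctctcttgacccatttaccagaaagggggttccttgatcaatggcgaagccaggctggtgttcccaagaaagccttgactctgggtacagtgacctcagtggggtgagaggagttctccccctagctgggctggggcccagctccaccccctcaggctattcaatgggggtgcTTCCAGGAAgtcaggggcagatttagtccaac
Agt: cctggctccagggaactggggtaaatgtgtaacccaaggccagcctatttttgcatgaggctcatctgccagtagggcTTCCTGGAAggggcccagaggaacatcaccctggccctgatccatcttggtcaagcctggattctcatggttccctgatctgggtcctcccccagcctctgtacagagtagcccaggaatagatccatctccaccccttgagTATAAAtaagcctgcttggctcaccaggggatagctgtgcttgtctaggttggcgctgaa

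The STAT match begins 2 bases before the start site in Gfap and 172 bases before it in Agt. Both start sites are those of GENCODE protein-coding transcripts, and for Gfap a noncoding transcript starts 3712 bases farther upstream. Agt also holds a TATA box match 30 bases before the start, found in 13.1% of promoters.

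Agt stood at 44.9, 52.2, 72.8, 73.4 and 52.1 CPM in female control and at 51.2, 99.3, 47.3, 50.2 and 32 CPM in female stressed libraries. It stood at 44.2, 41.2, 47.6, 60.3 and 76.9 CPM in male control and at 52.7, 53.6, 21.4, 41.5 and 42.5 CPM in male stressed libraries. The groups overlapped in both sexes, and the extremes, 21.4 in male stressed 3 and 99.3 in female stressed 2, are 4.64-fold apart. The log2 fold change with stress was -0.03 in females (95% interval -0.57 to 0.51) and -0.41 in males (SE 0.26, interval -0.95 to 0.12). The female value ran from -0.37 to 0.13 as single libraries were left out, so its direction rests on single pools.

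**Figure D5:**
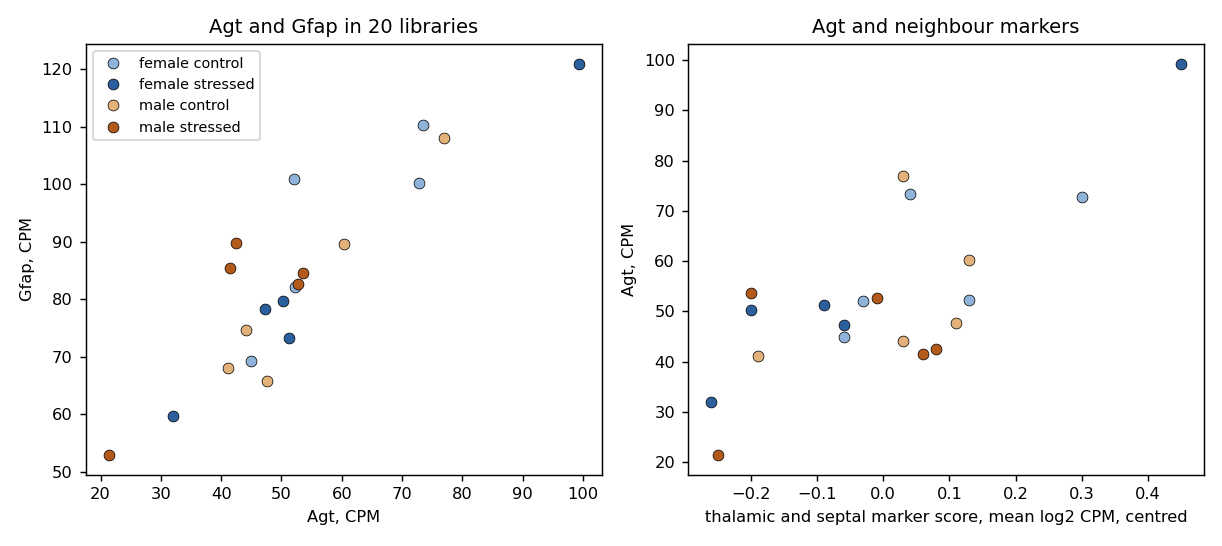
Left, CPM of Gfap against CPM of Agt in the 20 libraries, coloured by group. Right, CPM of Agt against the thalamic and septal score (mean log2 CPM relative to its mean). On the left the points run from male stressed 3 (Agt 21.4, Gfap 52.9) to female stressed 2 (Agt 99.3, Gfap 121), and the 4 groups intermix.

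Gfap was lowest and highest in the same 2 libraries as Agt, at 52.9 and 121 CPM. Over the 20 libraries the log2 CPM of Agt and Gfap had r = 0.891 and rho = 0.768, and r = 0.813 without male stressed 3 and female stressed 2. Thalamic and septal markers moved with both: Agt had r = 0.714 with their score (0.522 without those 2 libraries) and Gfap r = 0.68 (0.495 without them). With the striatal score Agt had r = -0.545 (-0.344 without those 2 libraries) and Gfap r = -0.387 (-0.141 without them). The libraries of one group share their handling, and all share the dissection, so these values describe the pools and not a link between the genes.

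The 36 genes did not form 1 tight block across libraries. The median r over their 630 pairs was 0.195, with 123 pairs over 0.5 and 192 under 0. For 17 members r with the mean of the others was over 0.5, led by Gfap (0.861) and Agt (0.85). For 6 members it was under 0, among them Vim (-0.235), Slc1a2 (-0.273), Prodh (-0.418) and Bcan, the matrix proteoglycan brevican (-0.506). Bcan, Prodh and the pairs named in this paragraph were singled out after their values were seen. The highest pair was Hepacam and Clu (r = 0.903), and the lowest Bcan and Pla2g7 (r = -0.754).

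The genes outside the list most like the astrocyte score were ranked by Pearson r of log2 CPM over the 20 libraries. They were Itpkb (0.923), Tox (0.904), Gpx3 (0.898), Lgmn (0.894), Vat1 (0.887), 2310022B05Rik (0.883), Olfm1 (0.874), Sdc3 (0.87), Shisa4 (0.87) and Sparc (0.868). None of the 10 was on the second astrocyte list described next. The astrocyte score itself had r = 0.788 with the neuronal score and r = 0.71 with the oligodendrocyte score.

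A second list of 58 astrocyte-enriched genes, also chosen with earlier results known, followed the members closely (r = 0.899 between the 2 scores, 0.859 without female stressed 2 and male stressed 3) and had 0 genes called by edgeR in all 6 contrasts. At an unadjusted p under 0.05, stress in females gave 4 higher and 4 lower, 13.8% of the list against 7.51% of all genes. Stress in males gave 4 and 7 (19% against 15.5%), and the average over the sexes 6 and 6 (20.7% against 12.7%). The medians were 0.01, -0.03 and -0.02. Phkg1, a phosphorylase kinase subunit, had a value of -0.23 with stress in females (adjusted p = 0.57).

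In the sex comparisons the second list gave 3 higher and 3 lower in controls (10.3% against 15.3% of all genes), and 2 higher and 7 lower in stressed mice (15.5% against 7.06%). The smallest p belonged to the peptide transporter Slc15a2 (0.40, adjusted p = 0.184) and Fjx1 (-0.16, adjusted p = 0.221) in controls. In stressed mice it belonged to Cyp4f15 (-0.30, adjusted p = 0.611) and Fam107a (-0.19, adjusted p = 0.626). Cyp4f15 passed without both female stressed 2 and male stressed 3, an omission chosen after seeing the data (-0.43, adjusted p = 0.0424 by edgeR). The interaction gave 2 higher and 3 lower (8.62% against 10.4%), with Lfng, a modifier of Notch receptors, at -0.39 (adjusted p = 0.335).

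The strongest value of that list belonged to Fabp7, the brain-type fatty acid-binding protein of radial glia and astrocytes. It stood at 25, 24.6, 25.8, 24.5 and 26 CPM in female control and at 15.9, 20.8, 20.8, 11.8 and 13.1 CPM in female stressed libraries. It stood at 30.8, 27.6, 31.8, 28.4 and 29.4 CPM in male control and at 18.8, 14.1, 23.1, 26 and 22.9 CPM in male stressed libraries. In both sexes every stressed library was below every control. Groups failed to overlap, in either direction, for 1.22% of all genes in females and 4.3% in males. The log2 fold change of Fabp7 in females was -0.61 (SE 0.15, adjusted p = 0.377 by edgeR). The log2 fold change averaged over the sexes was -0.54 (SE 0.10, adjusted p = 0.053). In that contrast 0.053 was the lowest adjusted p of all genes, and 6 genes were under 0.1. The adjustment can give several genes the same value, so this does not rank Fabp7 first. Averaged over the sexes, Fabp7 passed the threshold by DESeq2 (adjusted p = 0.000637), which called 0.1% of all genes. It also passed with DESeq2's size factors within edgeR (0.0482), without female stressed 2 (0.0108) and without male stressed 4 (0.0486). With other single libraries left out its adjusted p was up to 0.137. In the fit that included the striatal score the value was -0.42 (adjusted p = 0.627).

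Id3 and Id4, inhibitors of helix-loop-helix transcription factors, had the smallest p of the second list in males. Id3 was at 15.6 ± 1.41 CPM in male control and 20.1 ± 2.2 in male stressed libraries, a log2 fold change of 0.36 (adjusted p = 0.0806 by edgeR and 0.0155 by DESeq2). Id4 was at 257 ± 20.1 and 329 ± 35.8 CPM, a log2 fold change of 0.36 (adjusted p = 0.0871 by edgeR and 0.0197 by DESeq2), and 0.14 in the fit that included the striatal score. Leaving out single libraries gave adjusted p-values up to 0.277 for both. The fit with the striatal score gave 0.846 for Id3, whose log2 fold change there was 0.3, and 0.862 for Id4. Both passed without female stressed 2 (Id3 0.0314, Id4 0.0334) and in a fit of the male libraries alone (0.0489 and 0.0266), and Id3 without male stressed 5 (0.0348). In females Id4 was at 295 ± 39 and 293 ± 32.1 CPM, and the difference between the sexes' effects was 0.37 (adjusted p = 0.348). Id3 was higher with stress in females too, at 16.2 ± 0.962 CPM in control and 18.6 ± 1.25 in stressed libraries. Averaged over the sexes its log2 fold change was 0.27 (SE 0.06, adjusted p = 0.146 by edgeR). That average passed by DESeq2 (0.0332, with 0.1% of all genes called) and without female stressed 2 (0.0399). With other single libraries left out its adjusted p was up to 0.402.

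The other fixed markers also gave no called difference. Aqp4, the water channel of the end-feet, had a log2 fold change with stress of -0.10 in females and -0.06 in males. Apoe had values of 0.07 and 0.10, and Glul of 0.04 and -0.01. In males the 95% interval lay within 0.5 log2 units of 0 for 35 of 36 members, again with the exception of Agt, and averaged over the sexes for 35 of 36.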

How the data were processed

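RNA-seq was done on 20 adBNST libraries. The authors deposited whole-number counts per gene symbol, and STAR, featureCounts and mm10 are named in the submitters' processing notes. Versions, annotation and strand setting were not given in the sources used here. The library kit marks strand, per the labels' protocols. All 12988 genes had a row total of at least 1002.

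Counts were tested with edgeR 4.0.16 (R 4.3.3) using TMM factors, 4 group means and 6 contrasts. The filter filterByExpr kept all 12988 genes. CPM used TMM factors, and scores used log2 CPM with a prior count of 2. Intervals of 95% use the fit's degrees of freedom. Exon lengths (the merged exons of all transcripts of a gene) and overlaps came from GENCODE M21, and promoters from RefSeq. Scripts were tested on simulated data. The common coefficient of biological variation was 8.83%. Alternatives (DESeq2 1.42.0, limma 3.58.1, marker scores as covariates, omitted libraries) are given in the closing section.

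Members and lists were chosen with earlier results of these data known. Genes named by rule were 10 fixed markers, called members, the 3 members with the smallest p per contrast, the most and least variable members, the 2 other-list genes with the smallest p per contrast when none was called, and the 10 genes most like the score. P-values measure the spread between pools of 3 mice.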

Additional observations from a re-analysis of the deposited data

Results flagged for a closer look

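In 8 of 84 groups of 5 libraries tested, 1 library lay far from the other 4 by Dixon's criterion, of which chance flags about 1 in 20. Gfap in male stressed 3 was 52.9 CPM, below the others at 82.6 to 89.8. Agt in female stressed 2 was 99.3 CPM, above the others at 32 to 51.2. S100b in female control 3 was 138 CPM, above the others at 102 to 112. Slc7a10 in female stressed 2 was 36.4 CPM, above the others at 29.4 to 30.5. Sox9 in female stressed 1 was 54.6 CPM, just below a tight group at 56.2 to 56.6. Plpp3 was 407 CPM in female stressed 3 (others 373 to 379) and 379.8 CPM in male control 5 (others 356 to 362). Gjb6 in male control 2 was 40 CPM, above the others at 36.7 to 37.2.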

How the results depend on the processing

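The number of called astrocyte genes stayed at 0 for stress in females, sex in stressed mice, the interaction and the average under every alternative run. For stress in males it was 2 with DESeq2 (239 of all genes) and 1 with the 2 groups compared alone (303 of all genes), and 0 to 1 as single libraries were left out, against 1 of all genes in the fit of all libraries. For sex in controls it was 3 with DESeq2 (248 of all genes), 3 with the astrocyte score as a covariate (Ppp1r3c, Slc1a2, F3; 583 of all genes), 1 with the oligodendrocyte (318) or the neuronal score (302), and 0 to 1 as single libraries were left out, against 97 of all genes in the fit of all libraries. The difference of the astrocyte score moved with the striatal score as a covariate, to 0.057 (stress in males), -0.12 (sex in controls) and 0.09 (interaction). Score differences near 0 also crossed it: over the alternatives other than single omissions the astrocyte score ran from -0.071 to 0.025 (stress in females) and -0.037 to 0.017 (averaged), and the filament genes minus the others from -0.032 to 0.076 (females) and -0.0021 to 0.15 (males). Stress values of named members that changed sign were those of Gjb6 in males (0.015, striatal), F3 in females (-0.008 without female stressed 2 and male stressed 3, and -0.0076 to 0.067 without single libraries), Gfap in females (0.15 oligodendrocyte, 0.06 neuronal), Agt in females (0.34 oligodendrocyte, 0.21 neuronal, 0.05 astrocyte score, -0.37 to 0.13 without single libraries), Gfap in males (0.31 striatal, 0.16 neuronal, 0.072 astrocyte score, 0.056 without that pair of libraries, -0.12 to 0.067 without single ones), Aqp4 in males (0.15 striatal, 0.042 neuronal, 0.0023 astrocyte score) and Agt in males (0.2 striatal). The cause was not tested. Not every stress value was rerun: those of Slc1a3, Glul, Gja1 and Aldh1l1 in either sex were not, so whether they keep their sign is not known. The astrocyte score as a covariate and the omission of that pair of libraries were chosen after seeing the data. Same-numbered libraries had r from -0.473 to 0.237 in their deviations over all genes (5 of 30 pairs over 0.1). Their median r was -0.0116, against 0.0143 for libraries of different number. No pairing by number showed in these values, and shared handling of same-numbered libraries was not tested otherwise. A fit with the replicate number as a block called 0 members in each contrast, as did the fit without it. No member had fewer than 10 counts in any library; the lowest was 64, in the shallowest.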
